A study of Danio rerio with 8 samples.

Results

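Immune cell genes were examined in the livers of female zebrafish, as a set of leukocyte, macrophage, neutrophil and lymphocyte genes named in a list of 37 symbols. Of these, 36 were matched to 1 gene each among the 32520 genes counted in every fish, and mpx was not analysed here. The list was drawn up by gene name, with earlier results of these data known, and without a rule based on measured values. Gene expression had been measured by RNAseq in the whole livers of 8 fish aged 36 weeks, of which 4 had eaten a Control diet and 4 a Whole Egg diet, to ask whether long-term feeding on whole egg alters liver transcripts. Both diets had begun at day 21, the Control diet drew its protein from several sources, and in the Whole Egg diet a large share of that protein was replaced with whole egg product. By the paper's formulation the Whole Egg diet also held more fat and energy and less wheat starch. The paper's fat-matched diet without egg was not sequenced, so egg and fat cannot be told apart here. No mutant or transgene was named for either group, the strain is not given in the sources used here, and the fish are called by diet and by the number 1 to 4 in their labels (Control-1, Whole Egg-1). Each library came from 1 fish, nothing in the labels says which tank it came from, and p-values therefore measure the spread between these fish.

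The mammalian liver holds resident macrophages along the walls of its blood channels, which take up particles and dying cells from the blood. It also holds smaller, variable numbers of neutrophils and lymphocytes. In zebrafish, as in mammals, these leukocytes are recognised by genes that hepatocytes use little or not at all, such as the membrane phosphatase CD45 in all leukocytes, the receptor for colony stimulating factor 1 in macrophages, and the antigen receptor parts of T and B cells. In a whole liver, transcripts of such genes are diluted among those of the hepatocytes, and fewer cells of a type cannot be told apart from less RNA per cell.

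The 36 genes together received 554 counts in Control-4 and 1799 in Control-3, the lowest and the highest of the 8 fish, and after scaling by TMM factors (which set the bulk of genes equal between libraries) their summed CPM (counts scaled to a common library total) ran from 30.8 in Whole Egg-3 to 57.0 in Control-3. Of the 36 genes, 12 had enough counts to be compared between the diets. This required at least 0.475 CPM, by library size before TMM scaling, in at least 4 fish. None of the 12 passed through the values of 1 diet alone. The other 24 had too few counts, 15 genes had 0 counts in at least 1 fish, and 15 had fewer than 25 counts in all 8 fish together. One count was worth 0.0293 to 0.0687 CPM, and the limit that 0 counts allow, set at 3 counts in a library, was 0.0878 to 0.206 CPM. These limits and the values under them cover counting error only.

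The counts were spread unevenly over the kinds of immune cell. The paired invariant chain genes cd74a and cd74b, whose product guides MHC class II molecules in antigen-presenting cells, held 3448 counts over the 8 fish. The 6 macrophage genes held 1779 counts, the 4 genes used by leukocytes of every kind held 855, and the 3 subunit genes of the phagocyte NADPH oxidase held 290. The 4 lymphoid transcription factor genes held 208 counts, most of them on runx3, and the 4 neutrophil genes 167. The T cell genes held 87 counts, the inflammatory cytokines 38, the B cell genes 21 and the recombination genes rag1 and rag2 together 9. The remaining gene, cd3eap, held 647 counts. Despite its name, cd3eap codes for a subunit of RNA polymerase I (its current symbol is polr1g) and is not a T cell gene by function. The lists were thus carried by antigen presentation and macrophage genes, and most lymphocyte and neutrophil genes were close to the limit of detection at this depth. Gene lengths were not used, so counts are not compared as levels between single genes.

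**Figure D1:**
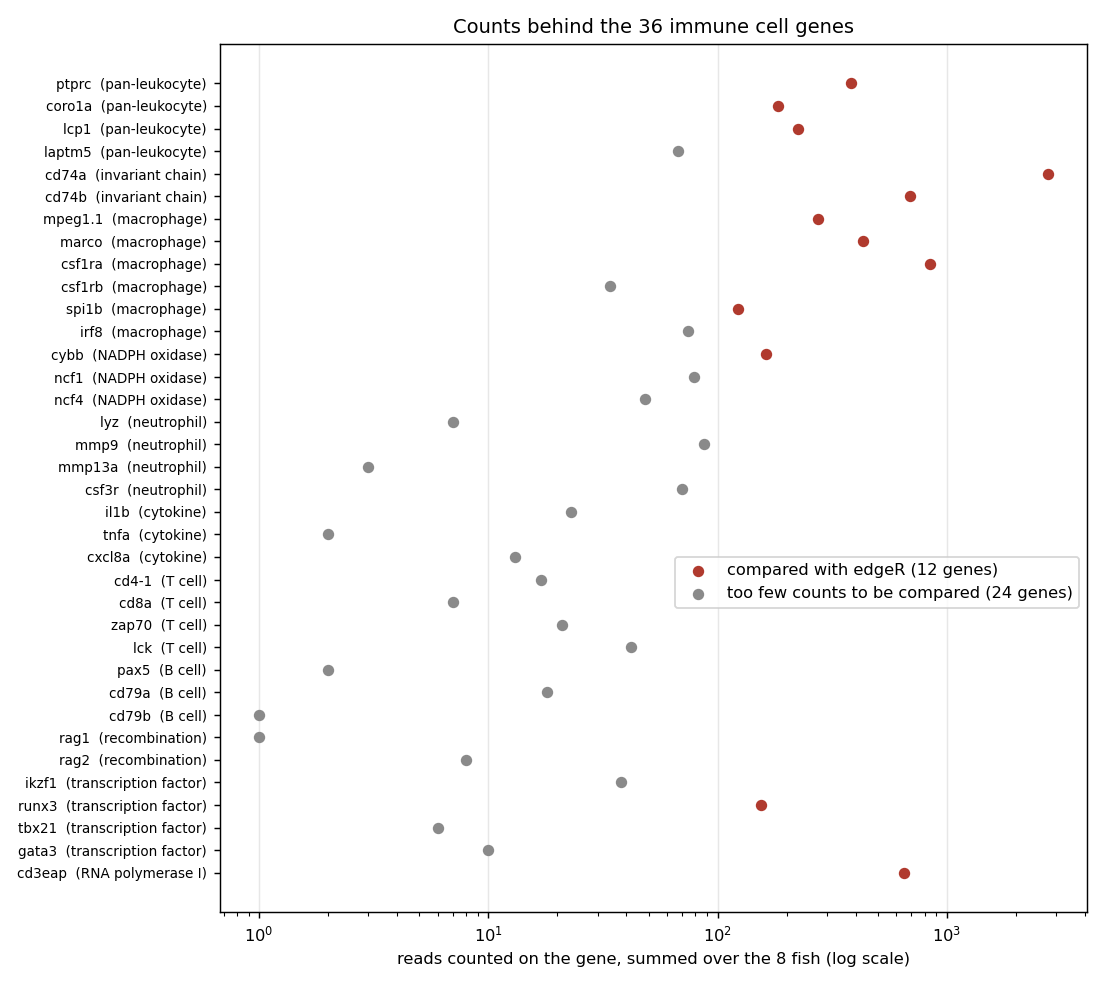
The plot shows, for each of the 36 genes with its class, the reads counted on the gene summed over the 8 fish, on a log axis, with the 12 genes compared between the diets in red and the 24 with too few counts in grey. cd74a stands highest at 2760 counts, and rag1 and cd79b stand lowest with 1 count each.

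No immune cell gene differed between the diets at an adjusted p under 0.1 (edgeR's quasi-likelihood test with Benjamini-Hochberg adjustment). The count was 0 of 12 genes, against 0% of the 13379 genes compared, and the smallest adjusted p of the 12 genes was 0.810. At an unadjusted p under 0.05, 2 of the 12 genes were called, csf1ra and lcp1, both lower in the Whole Egg fish, where 3.9% of all genes were called, 1.36% as lower and 2.54% as higher. DESeq2 also called 0 of the 12 at an adjusted p under 0.1 and 2 at an unadjusted p under 0.05, where it called 6.44% of all genes. The split of all genes at an unadjusted p under 0.05 depended on the scaling, with 340 higher and 182 lower with TMM factors, 189 higher and 282 lower with upper quartile factors, and 1458 higher and 10 lower with library size alone.

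The fitted values of the 12 genes were mostly below 0, without passing the test. The log2 fold change (Whole Egg over Control) was below 0 in 8 of the 12 and above 0 in 4, where 45.8% of all genes were below 0, and with library size alone it was below 0 in 7. Values ran from -0.75 to 0.26, with SE of 0.25 to 0.61. Genes listed as markers of other tissues and processes were read from the same fit. Fitted values were below 0 in 8 of 8 endothelial, 10 of 11 liver, 11 of 11 exocrine pancreas and 3 of 3 intestine genes. They were above 0 in 11 of 11 ovary, 8 of 8 cell cycle, 3 of 3 thrombocyte and 5 of 7 erythrocyte genes. With TMM factors a fall in fitted values was thus not particular to the immune cell genes. The marker genes were not counted in this way with library size alone. The median was -0.48 for the 12 genes and 0.04 for all genes. Library size alone moved the median of all genes to 0.49 and that of the 12 genes to -0.08. The median of the 12 then stood 0.57 below that of all genes, against 0.52 below it with TMM factors. Below the median of all genes stood 8 of the 12 under each of the 4 scalings tried. A change of scaling shifts all fold changes by nearly the same amount, so these places could hardly change and are not separate checks.

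**Figure D2:**
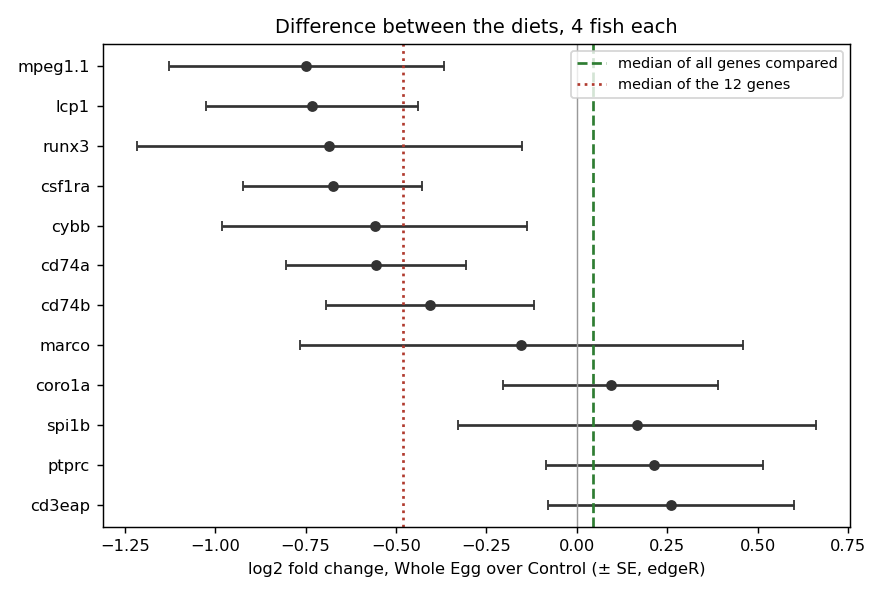
Points show the log2 fold change, Whole Egg over Control, of each of the 12 genes with bars of ± 1 SE (edgeR, TMM scaling, 4 fish per diet), and lines mark the median of the 12 genes (-0.48) and of all genes compared (0.04). The values run from mpeg1.1 at -0.75 to cd3eap at 0.26, and with library size alone the 2 medians are -0.08 and 0.49.

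Among the macrophage genes, csf1ra (ENSDARG00000102986), the receptor for colony stimulating factor 1 on which macrophages depend, had the smallest p. It measured 5.88, 5.17, 6.08 and 6.26 CPM in the Control fish numbered 1 to 4, and 5.21, 2.93, 2.89 and 3.62 CPM in the Whole Egg fish in the same order. With TMM factors the Control fish lay close together, and the groups overlapped only because Whole Egg-1 was just above Control-2. With library size alone the groups overlapped more, and the log2 fold change was -0.26 (edgeR unadjusted p 0.406). The mean was 5.85 ± 0.478 CPM (SD, n = 4) against 3.66 ± 1.09, with a log2 fold change of -0.68 (SE 0.25) and an edgeR adjusted p of 0.810 (unadjusted 0.0224). Its paralog csf1rb (ENSDARG00000053624), the other zebrafish copy of the same receptor, had too few counts to be tested, with 8, 4, 11 and 4 counts in the Control fish and 3, 2, 2 and 0 in the Whole Egg fish. In CPM these were 0.439, 0.181, 0.348 and 0.275 against 0.148, 0.0585, 0.0815 and 0, so that every Whole Egg fish was below every Control fish. The value of 0 in Whole Egg-4 allows up to 0.181 CPM, which is the value of Control-2, and the other Whole Egg fish rest on 2 or 3 counts.

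The macrophage effector genes were less even. The perforin-like gene mpeg1.1 (ENSDARG00000055290), widely used to mark zebrafish macrophages, measured 1.59, 1.81, 2.85 and 1.17 CPM in the Control fish and 1.13, 0.732, 0.938 and 1.69 in the Whole Egg fish. With TMM factors Whole Egg-4 lay among the Control fish and the other Whole Egg fish below them. The log2 fold change was -0.75 (SE 0.38), with an edgeR adjusted p of 0.810, and it was -0.40 with library size alone. The scavenger receptor gene marco (ENSDARG00000059294), through which macrophages bind bacteria, measured 1.48, 1.22, 4.56 and 1.79 CPM in the Control fish and 0.738, 3.54, 0.897 and 3.01 in the Whole Egg fish. This was the widest range of the 12 genes, 6.18-fold between Whole Egg-1 and Control-3, and 1 Control and 2 Whole Egg fish stood above all the others. The diets did not separate, at 2.26 ± 1.55 against 2.05 ± 1.44 CPM (SD, n = 4 each).

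The transcription factor gene spi1b (PU.1, needed to form myeloid cells) ranged from 0.285 to 1.01 CPM and was highest in the same fish as marco, namely Control-3, Whole Egg-2 and Whole Egg-4. Its log2 fold change was 0.17 (SE 0.50). The gene irf8, which directs myeloid precursors towards macrophages in zebrafish, had 74 counts and ranged from 0.163 CPM in Whole Egg-3 to 0.783 in Whole Egg-4, with the diets overlapping.

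Of the invariant chain genes, cd74a (ENSDARG00000009087) had the most counts of all 36 genes. It measured 21.5, 16.5, 20.7 and 14.4 CPM in the Control fish and 17.3, 9.66, 10.6 and 12.2 in the Whole Egg fish. With TMM factors all Whole Egg fish but Whole Egg-1 were below every Control fish, but not with library size alone. The mean was 18.3 ± 3.41 against 12.4 ± 3.42 CPM (SD, n = 4), with a log2 fold change of -0.56 (SE 0.25) and an edgeR adjusted p of 0.810 (unadjusted 0.0522). The second copy, cd74b (ENSDARG00000036628), measured 3.79, 4.53, 5.64 and 3.23 CPM in the Control fish and 4.33, 2.22, 2.81 and 3.68 in the Whole Egg fish. With TMM factors both copies were lowest in Whole Egg-2 and next lowest in Whole Egg-3. The diets overlapped more for cd74b (log2 fold change -0.41, SE 0.29, edgeR adjusted p = 0.812). With library size alone both copies were lowest in Control-4, and the log2 fold changes were -0.16 for cd74a and -0.06 for cd74b.

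The genes used by all leukocytes did not go one way. The gene ptprc (ENSDARG00000071437), which codes for CD45, measured 2.09, 1.68, 2.63 and 1.17 CPM in the Control fish and 2.16, 1.84, 2.36 and 2.47 in the Whole Egg fish. The Whole Egg fish all lay within the range of the Control fish (log2 fold change 0.21, SE 0.30, edgeR adjusted p = 0.883). The gene lcp1 (ENSDARG00000023188), for the actin-bundling protein L-plastin, measured 1.48, 1.40, 1.90 and 1.31 CPM in the Control fish and 1.13, 0.878, 0.652 and 1.02 in the Whole Egg fish. Every Whole Egg fish was below every Control fish with TMM factors, but not with library size alone. The mean was 1.52 ± 0.261 against 0.922 ± 0.207 CPM (SD, n = 4), with a log2 fold change of -0.73 (SE 0.29) and an edgeR adjusted p of 0.810 (unadjusted 0.0330). Among the 12 genes lcp1 alone had diets that did not overlap, where 1.13% of all genes compared lay wholly lower and 1.01% wholly higher in the Whole Egg fish.

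The actin-binding gene coro1a had the narrowest range of the 12 genes, 0.769 to 1.24 CPM (log2 fold change 0.09, SE 0.30). The lysosomal membrane gene laptm5 had 67 counts, of which 26 came from Control-3, and ranged from 0.122 to 0.823 CPM. Thus ptprc and lcp1, both markers of leukocytes at large, had fitted values of opposite sign in the same livers, and the difference between the genes was not tested.

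**Figure D3:**
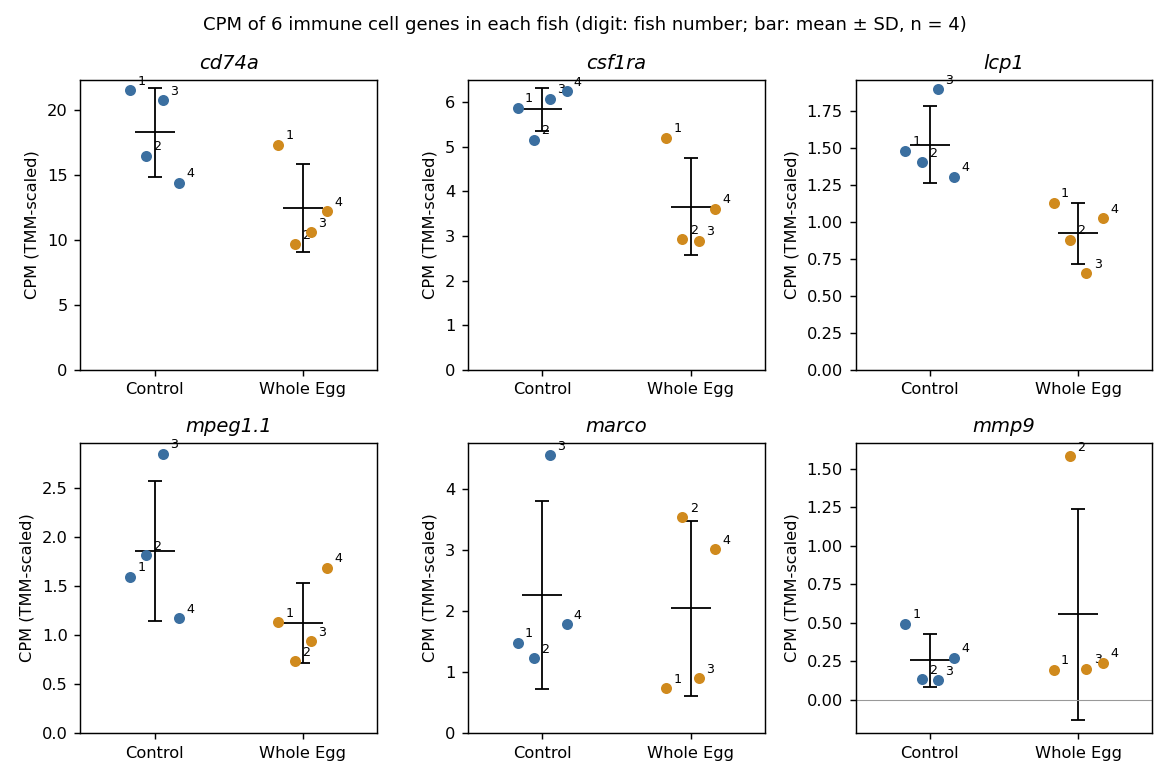
Each panel plots the CPM (TMM-scaled, linear axis) of 1 gene in the 4 Control and 4 Whole Egg fish, with the fish number beside each point and bars for the mean ± SD. lcp1 does not overlap between the diets, csf1ra overlaps through Whole Egg-1 at 5.21 CPM, marco is high in 1 Control and 2 Whole Egg fish, and mmp9 is high in Whole Egg-2 only, at 1.58 CPM.

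The phagocyte NADPH oxidase makes the superoxide with which macrophages and neutrophils kill microbes. Its membrane subunit gene cybb (ENSDARG00000056615) measured 1.37, 0.861, 1.36 and 0.619 CPM in the Control fish and 0.344, 0.615, 0.856 and 1.08 in the Whole Egg fish. The ranges overlapped (log2 fold change -0.56, SE 0.42, edgeR adjusted p = 0.818). The cytosolic subunit genes ncf1 and ncf4 were too low to be tested. The 79 counts of ncf1 gave 0.385 to 0.823 CPM in the Control fish and 0.148 to 0.408 in the Whole Egg fish, overlapping only between Control-1 and Whole Egg-3, and the 48 counts of ncf4 gave 0.0687 to 0.507 CPM with both extremes among the Control fish.

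The neutrophil genes had few counts, and none could be compared between the diets. The lysozyme gene lyz had 7 counts in 4 of the 8 fish, and the collagenase gene mmp13a had 3 counts in 2 fish. The receptor for colony stimulating factor 3, csf3r, which acts in the formation of neutrophils, had 70 counts and ranged from 0.137 to 0.633 CPM, both in Control fish. The gelatinase gene mmp9 (ENSDARG00000042816) had 9, 3, 4 and 4 counts in the Control fish and 4, 54, 5 and 4 in the Whole Egg fish. Thus 54 of its 87 counts came from Whole Egg-2, at 1.58 CPM, where the other 7 fish measured 0.127 to 0.494 CPM.

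The cytokine gene il1b (ENSDARG00000098700), which encodes the inflammatory interleukin 1 beta, had 0, 4, 1 and 0 counts in the Control fish and 0, 12, 5 and 1 in the Whole Egg fish. Whole Egg-2 again held the most, with 0.351 CPM. The tumour necrosis factor gene tnfa had 2 counts, both in Control-3, and the neutrophil-attracting chemokine gene cxcl8a had 13 counts in 5 fish. At this depth the counts were too few to compare these cytokines between the diets.

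The T cell, B cell and recombination genes of the list had few counts in all 8 livers. The T cell kinase gene lck (ENSDARG00000102525) had 1, 6, 9 and 5 counts in the Control fish and 2, 11, 5 and 3 in the Whole Egg fish, or 0.0549 to 0.344 CPM, and both extremes were Control fish. The kinase gene zap70, which acts beside it at the T cell receptor, had 21 counts, the helper T cell coreceptor gene cd4-1 had 17, and the cytotoxic T cell coreceptor gene cd8a had 7. The B cell receptor gene cd79a (ENSDARG00000037473) had 2, 1, 2 and 3 counts in the Control fish and 2, 4, 2 and 2 in the Whole Egg fish, while its partner cd79b had 1 count and the B cell factor gene pax5 had 2, all 3 counts in Control-3. The recombinase gene rag2 (ENSDARG00000052121), which joins antigen receptor genes in developing lymphocytes, had 0, 2, 0 and 0 counts in the Control fish and 1, 5, 0 and 0 in the Whole Egg fish, and its partner rag1 had 1 count, also in Whole Egg-2.

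Of the lymphoid transcription factors, runx3 (ENSDARG00000052826), which acts in cytotoxic T cells of mammals, alone had enough counts, with 0.330, 1.99, 1.08 and 0.687 CPM in the Control fish and 0.492, 0.439, 0.979 and 0.663 in the Whole Egg fish. The Control fish spanned 6.05-fold and held both extremes (log2 fold change -0.69, SE 0.53, edgeR adjusted p = 0.823). Without Control-2, its highest fish, the log2 fold change was -0.14, and without both Control-2 and Whole Egg-2 it was 0.00384. Control-2 also had the highest summed level of 8 intestine genes, 143 CPM where the others had 13.2 to 36.1. The part of intestine in the runx3 value was not tested. The broad lymphoid factor gene ikzf1 (Ikaros) had 38 counts, and the T helper factor genes tbx21 and gata3 had 6 and 10. None of the 3 reached 0.475 CPM before TMM scaling in any fish.

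The gene cd3eap (ENSDARG00000090386) measured 5.0, 3.04, 2.85 and 2.61 CPM in the Control fish and 5.61, 2.2, 4.08 and 4.34 in the Whole Egg fish. It was highest in Whole Egg-1 and Control-1 and did not separate the diets (log2 fold change 0.26, SE 0.34, edgeR adjusted p = 0.873).

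To follow the genes together in each fish, the log2 CPM of each of the 12 genes was centred on its mean over the 8 fish and averaged. The mean was 0.07, 0.11, 0.56 and -0.16 in the Control fish 1 to 4, and -0.14, -0.27, -0.33 and 0.16 in the Whole Egg fish 1 to 4. With TMM factors Control-3 stood highest and Whole Egg-3 lowest, while Whole Egg-2 was lowest with upper quartile factors and Control-4 with library size alone. The diets overlapped, with Control-4 below Whole Egg-1 and Whole Egg-4 above Control-1 and Control-2. The diets averaged 0.14 ± 0.30 and -0.14 ± 0.22 (SD, n = 4 each), a difference of -0.29 where the pooled SD of fish within a diet was 0.265. With library size alone the difference was 0.12, a scaling that also raised the median of all genes from 0.04 to 0.49, and the median of the 12 genes stood 0.57 below that of all genes with it and 0.52 below with TMM factors. No test was made on this mean, since its genes were listed with earlier results of these data known. Without cd3eap the difference was -0.34. With the same 12 genes kept, it was -0.15 without Control-3 and between -0.39 and -0.21 without any other single fish.

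**Figure D4:**
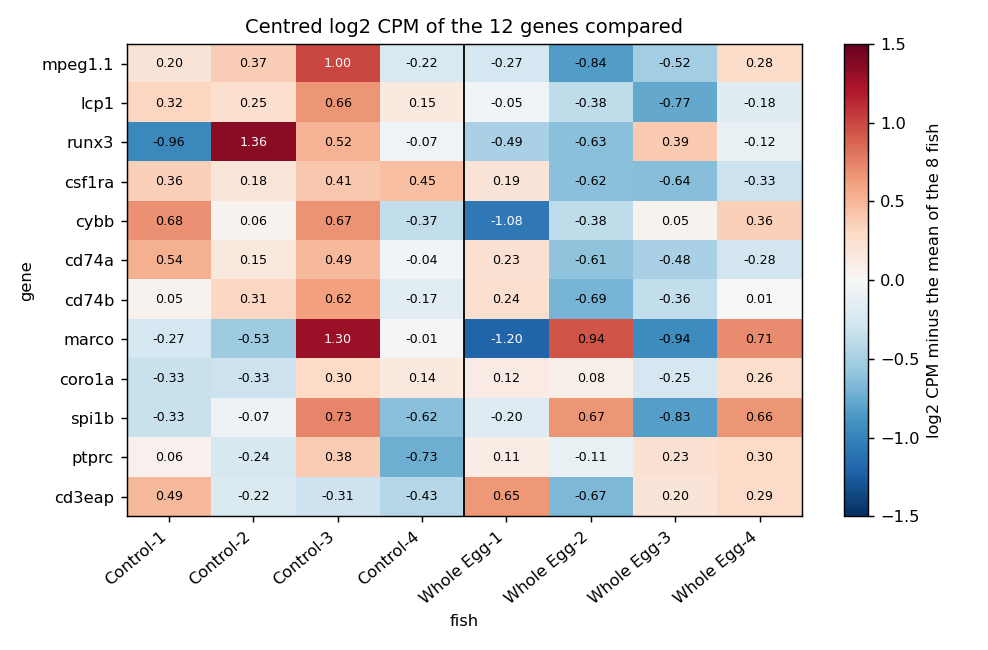
The grid gives, for each of the 12 genes (rows) and 8 fish (columns), the log2 CPM minus the gene's mean over the 8 fish, with red above and blue below that mean (TMM scaling) and a line between the diets. Control-3 is above the mean in 11 of the 12 genes, while the columns of Whole Egg-2 and Whole Egg-3 are mostly below it.

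The values of a few fish stood out over the 12 genes. Control-3 was the highest fish in 7 of the 12 genes (58.3%) and the lowest in 0, where it was the highest fish in 5.37% of all genes. With the genes compared kept, 0 of the 12 had an unadjusted p under 0.05 in edgeR without Control-3 (2.21% of all genes), and also 0 without Whole Egg-3 (4.19% of all genes). Control-3 also had the most counts on genes (35871236), and its summed level of 10 endothelial genes was the highest, 68.6 CPM where the others had 35.5 to 62.1. Their part in the pattern was not tested.

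Whole Egg-2 was the lowest fish in 4 of the 12 genes (33.3%) and Whole Egg-3 in 3 (25%). In all genes, Whole Egg-2 was the lowest fish in 25.9% and the highest in 29.0%, and Whole Egg-3 was the lowest in 8.45%. The 13 ovary genes listed summed to 594 CPM in Whole Egg-2, against 4.52 to 71.3 in the others, and 8 cell cycle genes to 289 CPM, against 4.52 to 35.8. The 11 liver genes summed to 11747 CPM in Whole Egg-2, against 26313 to 40303. Its TMM factor was 1.72, the largest of the 8 fish, whose factors otherwise ran from 0.682 to 1.18, and the factor divides its CPM. With library size alone the mean of the 12 genes in Whole Egg-2 was 0.46, above every other fish, in place of -0.27. For the same 12 genes, the difference between the diets was -0.24 without Whole Egg-2 and -0.26 without both Control-2 and Whole Egg-2.

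**Figure D5:**
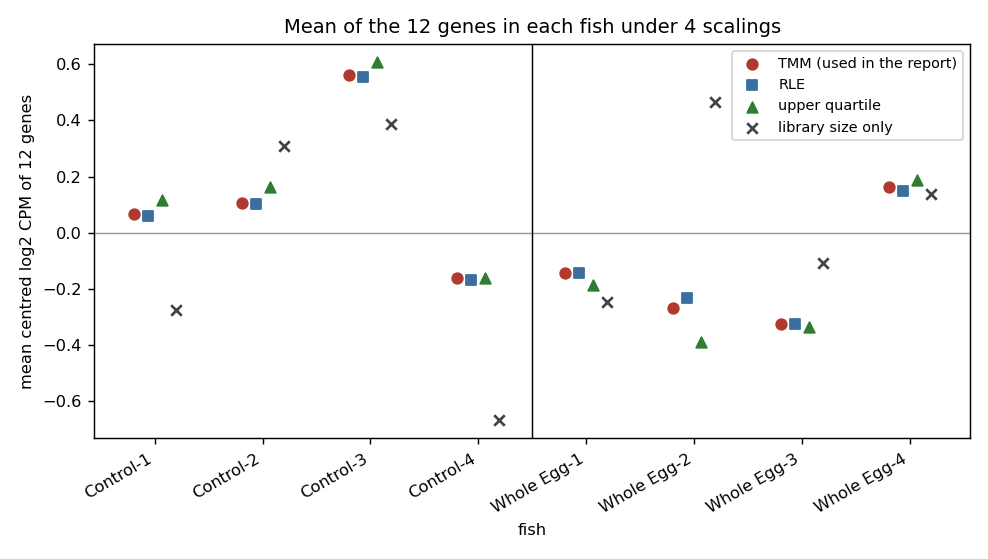
The plot shows the mean centred log2 CPM of the 12 genes in each of the 8 fish under TMM, RLE and upper quartile factors and with library size alone. The first 3 scalings lie close together in each fish, while library size alone places Whole Egg-2 at 0.46, above every other fish, and gives a difference between the diets of 0.12 in place of -0.29, as the median of all genes moves from 0.04 to 0.49.

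Other leukocyte genes, listed by cell type or pathway with earlier results of these data known, were read from the same fit. Of 92 genes listed, 75 were matched and 32 had enough counts. In edgeR 0 of the 32 were called at an adjusted p under 0.1 (0% of all genes) and 0 at an unadjusted p under 0.05 (3.9% of all genes). DESeq2 called 0 and 1 (0% and 6.44% of all genes). Diets that did not overlap were found for 0 of the 32, where 1.13% of all genes lay wholly lower and 1.01% wholly higher. The fitted value was below 0 in 26 and above 0 in 6 with TMM factors, where 45.8% of all genes were below 0, and below 0 in 6 with library size alone, where 10.5% of all genes were. Against the median of all genes, 27 of the 32 stood lower with TMM factors and 25 with library size alone. Since a change of scaling shifts all genes nearly alike, these counts are not separate checks. The smallest unadjusted p belonged to il2rb, a chain of the interleukin 2 receptor of T and NK cells, at 1.39 ± 0.366 CPM in the Control fish and 0.847 ± 0.212 in the Whole Egg fish (SD, n = 4), with a log2 fold change of -0.71 (SE 0.33) and an edgeR adjusted p of 0.810.

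The next, ctss2.1, a cathepsin S gene placed with the antigen presentation genes, measured 71.0 CPM in Whole Egg-2 and 0.738 to 7.83 in the others. Its log2 fold change was 2.56, with an SE of 1.19 (edgeR adjusted p = 0.810), and the diets overlapped in the other 7 fish. Whole Egg-2 also had the highest ovary sum, and its part in the ctss2.1 value was not tested. The MHC class II gene mhc2dab ranged from 0 CPM in Whole Egg-2 to 5.88 in Control-1. The MHC class II regulators rfx5 and ciita ranged from 1.64 to 3.99 and from 0.322 to 0.885 CPM.

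The macrophage lysosome gene cd68 was lower in Whole Egg-2, at 25.1 CPM, than in the other fish, at 37.2 to 42.6. The sugar phosphate transporter gene slc37a2 was more even, at 15.6 to 21.0 CPM. The chemokine gene cxcl18b, grouped with the neutrophil genes, reached 15.9 CPM in Whole Egg-3 and measured 3.01 to 7.38 in the other fish. The secretory factor gene xbp1, listed for plasma cells and also used by other secreting cells, measured 238 CPM in Control-1 and 216 in Whole Egg-1 and 39.5 to 94.2 in the others. The cytokine genes il6, il10, il12a, il12bb and il4, the coreceptor gene cd8b and the lytic gene nkl.3 had 0 counts in all 8 fish. Control-3 was the highest fish in 9 of the 32 genes.

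The complement genes, made mainly by hepatocytes, were counted apart. All 10 had enough counts. The fitted values were below 0 in 10 with TMM factors (45.8% of all genes) and in 8 with library size alone (10.5%). In edgeR 0 were called at an adjusted p under 0.1 (0% of all genes) and 0 at an unadjusted p under 0.05 (3.9%). The central component gene c3a.1 measured 3083 to 3961 CPM in the Control fish and 1169 to 3057 in the Whole Egg fish (log2 fold change -0.46, SE 0.34, edgeR adjusted p = 0.812). The diets did not overlap for c3a.1 with TMM factors, where 1.13% of all genes lay wholly lower, but did with library size alone. Whole Egg-2 was lowest for c3a.1 and also had the lowest sum of the 11 liver genes, 11747 CPM, whose part was not tested.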

How the data were processed

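RNA from whole livers of 8 female fish (4 per diet) was sequenced as single-end, strand-specific libraries. After trimming with Trimmomatic 0.36, the authors mapped reads to GRCz11 with STAR 2.5.2b, and they deposited the raw read counts per gene of each fish without normalization. The count of the strand holding 97.7 to 98.1% of stranded counts was used. Depth was 16916307 to 35871236 counts on genes per fish (median 21073643.5). By the deposited counts, 33.9 to 37.9% of reads mapped to several places, and these are not in the counts on genes. Of uniquely mapped reads, 13.0 to 22.7% fell on no gene or could not be given to 1 gene. The part of these reads in the low counts was not tested.

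Symbols were matched through a table of gene names, a supplement table of the study (mpeg1.1) and RefSeq synonyms (spi1b, cd3eap), and 29201 of 32520 identifiers had a symbol. The members and lists were chosen with earlier results of these data known. Every matched member is named. Values in every fish are given for the member with most counts in each class, members whose diets did not overlap, the 3 with the smallest p and those with an outlying fish, and for mpeg1.1 and cd74b, chosen after their values were seen. Other lists give up to 3 genes with most counts and the 2 with the smallest p over all. Other genes named were chosen after their values were seen.

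All genes were fitted with edgeR 4.0.16 (quasi-likelihood test, TMM, filterByExpr with a minimum count of 10, Benjamini-Hochberg adjustment over 13379 genes, threshold 0.1, no covariate) in R 4.3.3, after a test on simulated data. The SE of a log2 fold change was worked back from the test, as its absolute value divided by the square root of the F statistic. Log2 CPM had a prior count of 2. The alternatives were DESeq2 1.42.0, a block by fish number, other scalings, strands, filters, prior counts and thresholds, and left-out fish. Library size alone, DESeq2 with the block and left-out fish with the genes of all 8 fish kept were added after seeing the data.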

Additional observations from a re-analysis of the deposited data

Results flagged for a closer look

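Within each diet, a fish was looked at again where its gap to the nearest fish, divided by the range of the 4 fish, was above Dixon's critical value for 4 values, and chance gives this in about 1 in 20 groups. It was computed for the mean of the 12 genes and for the 13 genes with at least 80 counts, a minimum chosen after seeing the data, in 28 groups, of which 2 passed. For marco, Control-3 stood apart from the other Control fish at 4.56 CPM (gap over range 0.831). For mmp9, Whole Egg-2 stood apart from the other Whole Egg fish at 1.58 CPM (gap over range 0.968). Whole Egg-2, which also held the most il1b and rag2 counts, had the highest ovary sum, 594 CPM against 4.52 to 71.3. The part of ovary in these values was not tested.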

How the results depend on the processing

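The count of immune cell genes at an adjusted p under 0.1 was 0 in edgeR under every alternative run, and so was that of the other leukocyte genes. Both counts were also 0 in DESeq2, which was run only with all fish kept, without and with a block by fish number. It was not run with fish left out or with the other scalings, strands and filters. The set without Control-4 and Whole Egg-1, where the paper reported differentially expressed genes after excluding low counts, was tested here with edgeR only. The difference in the mean of the members that passed each filter (4 to 36 genes) was below 0 except with library size alone, where it was 0.12 for the 12 genes while the median of all genes moved from 0.04 to 0.49. It ran from -0.44 to -0.15 when single fish were left out and genes filtered again (12 to 15 genes), and from -0.39 to -0.15 for the same 12 genes, an alternative chosen after seeing the data. With the fish number as a replicate block it was -0.29, which such a block cannot change since every number occurs in both diets. In that fit edgeR called 0 of the 12 genes, and 2 had an unadjusted p under 0.05, as did 5.64% of all genes. With this block the 2 were csf1ra (edgeR unadjusted p 0.0189) and cd74a (0.0307), while lcp1 was at 0.0638. Same-numbered fish are different fish, and their deviations correlated at r = 0.0787 to 0.451 (mean 0.27). Those numbered 1, 2 and 4 correlated best with their own number in the other diet, and those numbered 3 did not. The numbers were not taken as pairs, since the labels do not say what they stand for and number 3 had the lowest r. Whether they mark a shared origin was not tested. DESeq2 with the block called 0 of the 12 genes and 20 of all genes, against 0 of all genes without the block. With the block it gave an adjusted p only for cd74a, cd74b, csf1ra, marco and cd3eap. The others of the 12 genes, lcp1 among them, had none and could not be called. With single fish left out and the 12 genes kept, 0 to 3 had an unadjusted p under 0.05, and it was 3 without Control-4 (1.75% of all genes), without Whole Egg-1 (9.4%) or without Whole Egg-4 (9.8%). With library size alone it was 0 of 12 (11% of all genes). Without both Control-4 and Whole Egg-1, the difference for the same 12 genes was -0.39. In that set 3 of the 12 and 4 of the 32 other leukocyte genes had an edgeR unadjusted p under 0.05 (7.11% of all genes). Without both Control-2 and Whole Egg-2, where the difference was -0.26, it was 1 of the 12 and 1 of the 32 (2.06%). With genes filtered under each setting, the unadjusted p ran from 0.00313 to 0.406 for csf1ra and from 0.0221 to 0.439 for lcp1, whose fitted values stayed below 0. Fitted values changed sign under some alternatives for cd3eap, coro1a, marco, runx3 and spi1b. Low counts limit the 24 genes not tested.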
